A study of Mus musculus with 6 samples.

Results

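Brown fat genes were followed through RNA sequencing of hearts from tumour-bearing mice given ginsenoside Rh2, doxorubicin or both. The set had 7 genes, Ucp1, Cidea, Elovl3, Otop1, Dio2, Zic1 and Prdm16, which were found by gene symbol among the 45777 genes of the series. The set was chosen on the levels of these genes in these same libraries, so every level and difference given for them is a description and none was tested. All 7 were listed, and 6 averaged 10 counts or more per library, the minimum for the 18328 genes that entered comparisons across genes. Zic1 fell short of it, and Ucp1, Elovl3 and Otop1 met it through 1 library.

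The mice were female BALB/c nude animals (CAnN.Cg-Foxn1nu/Crl), which lack a thymus. They were 6 weeks old at the start of the experiment, and treatment began at 7 weeks. All of them, Control included, carried a xenograft of MDA-MB-231, a human breast cancer cell line placed under the skin 7 days before treatment. A Control group given saline, doxorubicin alone at 2 mg/kg (Dox), Rh2 alone at either dose and both agents together (Rh2-20 + Dox, Rh2-30 + Dox) made up the 6 conditions. The groups with Rh2 alone are labelled Rh2-20 mg/kg and Rh2-30 mg/kg, and written Rh2-20 and Rh2-30 from here on. Doxorubicin, an anthracycline used against breast cancer that can injure the heart, was injected every other day to a cumulative 22 mg/kg, and Rh2, a ginsenoside (a steroid-like glycoside of ginseng), every day in PBS with Tween 80, over 3 weeks. Each condition was 1 library of RNA pooled from the hearts of 5 mice, so a difference between conditions had no replicate check, and the spread between mice was not measured.

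Brown fat is a heat-producing tissue whose cells hold many mitochondria and small lipid droplets. Noradrenaline from sympathetic nerves acts on beta adrenergic receptors there, cAMP and protein kinase A then set off lipolysis and transcription of Ucp1, and the uncoupling protein in the inner mitochondrial membrane lets protons return without making ATP, so that fuel is burned as heat. Deposits of brown fat lie around the aorta and in the mediastinum, next to the heart. Ucp1 is the defining gene of the tissue, Cidea codes for a lipid droplet protein, Elovl3 for an enzyme that lengthens fatty acids and Otop1 for a proton channel. Dio2 codes for the deiodinase that turns thyroxine into active thyroid hormone, Prdm16 for a transcriptional regulator that favours the brown over the muscle fate, and Zic1 for a zinc finger factor of classical brown fat. Prdm16 also acts in heart development.

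The 250 bases before the annotated start of Ucp1, Otop1 and Dio2 are shown because Ucp1 and Dio2 are classical targets of cAMP and because levels of all 3 genes were highest in the same library. They are RefSeq sequence of build GRCm38.p6 (mm10), 5′ to 3′ on the strand of the gene. Capitals mark a cAMP response element (CRE, TGACGTCA) or its first 5 bases (TGACG), a nuclear receptor binding motif (AGGTCA) or a TATA box (TATAAA), each searched on both strands. The Ucp1 window is chr8:83290098-83290347 on the plus strand, that of Otop1 is chr5:38277154-38277403 on the plus strand, and that of Dio2 is chr12:90739039-90739288 on the minus strand.
Ucp1: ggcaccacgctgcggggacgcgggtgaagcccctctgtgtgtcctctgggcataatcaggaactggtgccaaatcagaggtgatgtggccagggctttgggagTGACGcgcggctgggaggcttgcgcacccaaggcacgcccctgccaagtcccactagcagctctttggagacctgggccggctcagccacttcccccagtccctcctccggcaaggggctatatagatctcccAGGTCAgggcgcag
Otop1: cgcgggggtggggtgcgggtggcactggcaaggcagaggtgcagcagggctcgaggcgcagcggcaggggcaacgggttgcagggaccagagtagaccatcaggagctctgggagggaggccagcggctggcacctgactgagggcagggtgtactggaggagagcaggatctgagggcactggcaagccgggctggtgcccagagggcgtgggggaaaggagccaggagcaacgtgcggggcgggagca
Dio2: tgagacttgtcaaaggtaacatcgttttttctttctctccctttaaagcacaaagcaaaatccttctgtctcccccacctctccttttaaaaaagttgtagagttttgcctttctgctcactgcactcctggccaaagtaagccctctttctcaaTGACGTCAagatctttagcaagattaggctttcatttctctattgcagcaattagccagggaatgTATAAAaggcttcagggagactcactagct
In Dio2 the whole CRE began 95 bases before the start and the TATA box 30 bases before it, and in Ucp1 TGACG began 147 bases and AGGTCA 14 bases before the start. The Otop1 window held none of the 4 motifs, nor did those of Zic1 and Prdm16. Among 32851 windows of the same length, 1.55% held TGACGTCA, 17.8% held TGACG, 14.0% held AGGTCA and 12.4% held TATAAA, and every TGACGTCA is also a TGACG match. A repeat of AGGTCA with 1 base between (AGGTCANAGGTCA) was in 0.0335% of all windows and in none of the 5 member windows at hand. A match is a string of letters and says nothing of whether a factor was bound in these hearts. Sequence beyond these 250 bases was not searched, so a motif missing here can still lie farther from the start.

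Libraries held between 86164411 and 90621002 counts and were of like depth. Markers of cardiac muscle, such as the myosin heavy chain Myh6 at 1465 to 1900 FPKM (a level scaled to transcript length and library size), were at a high level in each library. The Rh2-30 library stood apart: 194 of the 18328 genes tested (1.06%) were at least 4-fold higher in it than in each of the other 5 libraries, against 3 for Control (0.0164%), 2 for Rh2-20 (0.0109%), 10 for Dox (0.0546%), 3 for Rh2-20 + Dox (0.0164%) and 6 for Rh2-30 + Dox (0.0327%). Of the members, Ucp1, Elovl3 and Otop1 were among the 194.

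Ucp1 (chromosome 8, 83290348 to 83298456) was close to absent from all libraries but Rh2-30. Its raw counts were 0 in Control, 8 in Rh2-20, 6442 in Rh2-30, 0 in Dox, 11 in Rh2-20 + Dox and 12 in Rh2-30 + Dox. Relative to Control, taken at a floor of 3 counts per library, the level in Rh2-30 was at least 1886-fold higher. The next library was Rh2-30 + Dox, which got the same dose of Rh2, and there the level was 492-fold lower (95% counting interval 281 to 953). These intervals cover counting error alone, by the exact binomial method on counts scaled to library size with the trimmed mean of M values (TMM). A fold given as at least some value sets the library with 0 counts at 3 and takes the higher count as it stands. The counting error of that higher count is left out. The 3 low libraries with any count did not differ beyond counting error, since Rh2-30 + Dox was 1.15-fold above Rh2-20 + Dox with a log2 interval of -1.11 to 1.52, and the latter was 1.35-fold above Rh2-20 with an interval of -1.01 to 1.95. The 0 counts in Control and Dox allow a level of up to 0.0530% and 0.0525% of that in Rh2-30. In a bulk sample, more cells of a type and more RNA per cell cannot be told apart. In a pool of 5 hearts, a level carried by 1 heart cannot be told from a level shared by all.

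Elovl3 and Otop1 had the same shape at a lower level. Elovl3 (chromosome 19, 46131897 to 46135694) had 453 counts in Rh2-30, 3 in Rh2-20 and 0 in each of the other 4 libraries. Otop1 (chromosome 5, 38277404 to 38304217) had 397 counts in Rh2-30, 5 in Rh2-20, 3 in Rh2-20 + Dox and 0 in Control, Dox and Rh2-30 + Dox. Both genes were thus high in 1 library and at or near the floor in the others. Over Control, the Rh2-30 level was at least 133-fold higher for Elovl3 and at least 116-fold higher for Otop1. Over the next library, Rh2-20 in each case, Elovl3 was 143-fold higher (48.7 to 698) and Otop1 75.4-fold higher (32.0 to 233). The wide intervals come from the 3 and 5 counts of the lower library.

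Cidea (chromosome 18, 67343564 to 67367794) and Dio2 (chromosome 12, 90724552 to 90739038) also peaked in Rh2-30, but from a level that every heart library had. Cidea counts were 627 in Control, 811 in Rh2-20, 1900 in Rh2-30, 308 in Dox, 603 in Rh2-20 + Dox and 748 in Rh2-30 + Dox. Cidea was 2.66-fold higher in Rh2-30 than in Control (2.43 to 2.92) and 2.22-fold higher than in Rh2-20 (2.05 to 2.42), and it was lowest with Dox alone. The log2 difference of Dox from Control was -1.04 (-1.24 to -0.84). Each Rh2 dose given with Dox put Cidea above Dox alone, by a log2 of 0.84 (0.64 to 1.05) at 20 mg/kg and 1.23 (1.04 to 1.43) at 30 mg/kg. Rh2-20, Rh2-30 + Dox, Control and Rh2-20 + Dox were neighbours in that order, each within 1.14-fold of the next, and with library spread added (a dispersion of 0.0285, estimated over the 6 libraries as 1 group) all 3 of those intervals held 0. With the larger dispersion of 0.0865 that conditional likelihood gave, intervals also held 0 for Dox against Control (-2.23 to 0.15), for Rh2-20 + Dox against Dox (-0.35 to 2.04) and for Rh2-30 against Rh2-20 (-0.03 to 2.34), and that of Rh2-30 against Control did not (0.23 to 2.60).

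Dio2 counts were 127 in Control, 127 in Rh2-20, 610 in Rh2-30, 140 in Dox, 163 in Rh2-20 + Dox and 20 in Rh2-30 + Dox. The deiodinase gene thus took both its highest and its lowest level at 30 mg/kg of Rh2, without and with doxorubicin. The Rh2-30 level was 4.22-fold that of Control (3.48 to 5.15) and 3.62-fold that of Rh2-20 + Dox, the next library (3.04 to 4.33). In Rh2-30 + Dox the log2 difference from Control was -2.70 (-3.49 to -2.04), or -3.69 to -1.77 with library spread added. Control, Rh2-20, Dox and Rh2-20 + Dox lay within 1.09-fold of their neighbours, and each of those intervals held 0.

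Of the transcription factor genes, Prdm16 did not peak in Rh2-30 and Zic1 was too low to say. Prdm16 (chromosome 4, 154316122 to 154637360) had 2261 counts in Control, 2330 in Rh2-20, 2096 in Rh2-30, 3144 in Dox, 2681 in Rh2-20 + Dox and 2296 in Rh2-30 + Dox. Every step between neighbours in the order of its levels lay within an interval that held 0 once library spread was added. From end to end, Rh2-30 minus Dox was a log2 of -0.76, and its interval with that spread was -1.44 to -0.08. With the larger dispersion of 0.0865 the end-to-end interval was -1.94 to 0.42. Prdm16 was highest with Dox alone and lowest in the library with the most Ucp1, where it stood at a log2 of -0.30 from Control (-0.38 to -0.21, or -0.98 to 0.38 with library spread added). Zic1 (chromosome 9, 91358058 to 91365768) had 10 counts in Rh2-30, 6 in Rh2-20 + Dox and 0 in the other 4, and 10 against 6 counts is a ratio of 1.61 with an interval of 0.530 to 5.39. At this depth no difference in Zic1 between those 2 libraries could be seen.

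**Figure D1:**
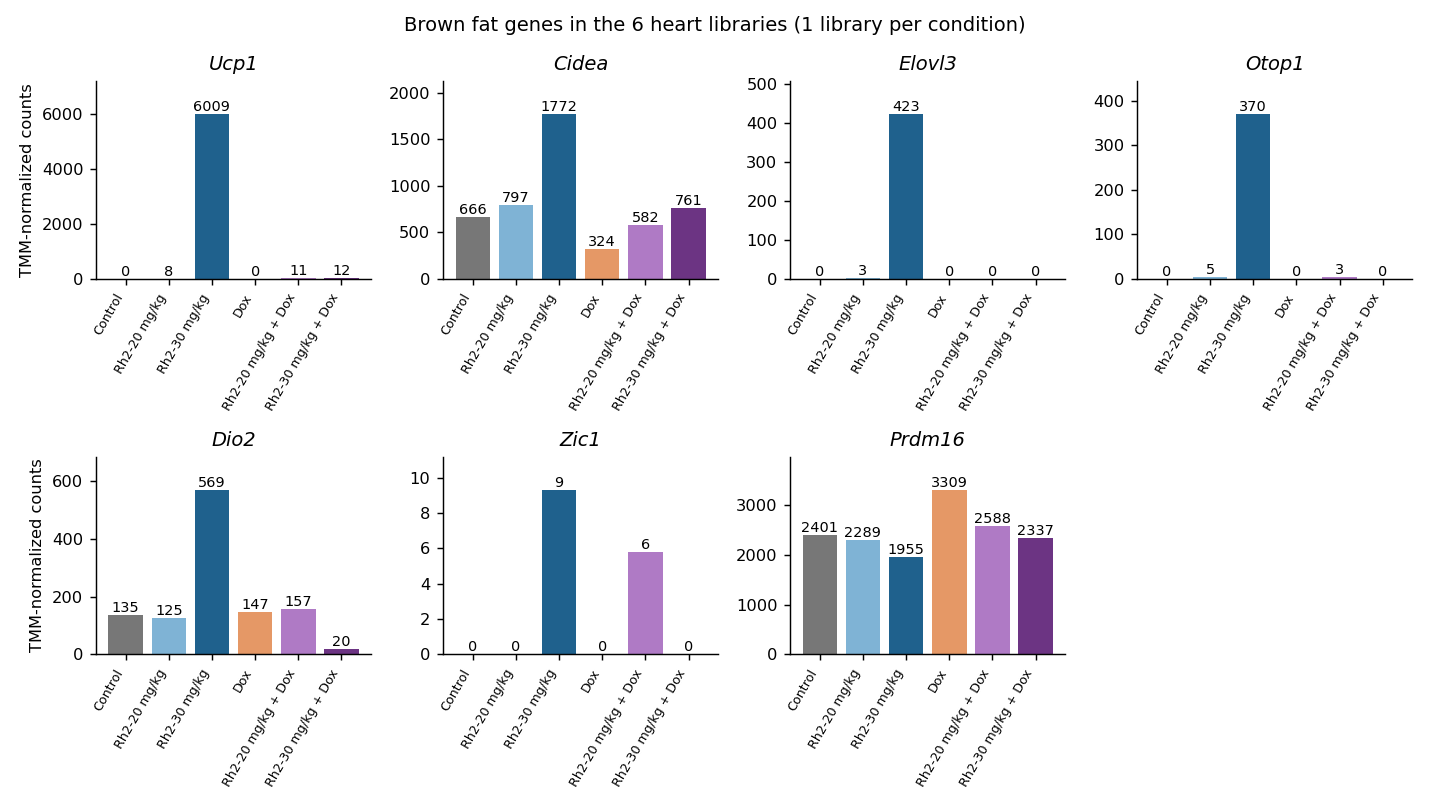
TMM-normalized counts (linear axes from 0) of the 7 brown fat genes in the 6 heart libraries, 1 bar per library with its value above it. Ucp1, Elovl3 and Otop1 stand almost alone in Rh2-30, Cidea and Dio2 are raised there over a level present in every library, and Prdm16 is highest in Dox.

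Levels of different genes were compared per transcript length, with no correction for how well the library kit recovers each gene. In FPKM, the Control library had Cidea at 4.79, Prdm16 at 2.33 and Dio2 at 0.175, with the other 4 genes listed at 0. In the Rh2-30 library Ucp1 led at 33.9 FPKM, ahead of Cidea at 14.1, Prdm16 at 2.08, Elovl3 at 2.07, Otop1 at 1.09, Dio2 at 0.821 and Zic1 at 0.014.

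Comparison of each treated library with Control asked how many of the 6 members with enough counts differed at least 2-fold, and all 5 comparisons share the 1 Control library. In Rh2-30 5 members were higher and 0 lower, beside 8.45% and 1.63% of all genes tested. In Rh2-20 2 were higher and 0 lower, beside 3.32% and 2.78% of all genes. They were Ucp1, 2.47-fold over Control taken at 3 counts, and Otop1, 1.54-fold over it. Both rest on under 10 counts, whose own counting error is left out, so neither fold is a lower limit. In Dox 0 were higher and 1, Cidea, was lower, beside 5.43% and 3.56%. In Rh2-20 + Dox 1, Ucp1, was higher (3.33-fold over Control at that floor, from 11 counts) and 0 lower, beside 5.1% and 3.6%. In Rh2-30 + Dox 1, Ucp1, was higher (3.83-fold over Control at that floor, from 12 counts) and 1, Dio2, was lower, beside 4.03% and 6.82%. The choice of the members used these values, so nothing is read from these shares.

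The doxorubicin difference of the members was taken at each Rh2 dose in turn. Without Rh2, Dox minus no Dox was a log2 of -1.04 for Cidea, 0.13 for Dio2 and 0.46 for Prdm16. At 20 mg/kg of Rh2 it was -0.45 for Cidea, 0.33 for Dio2, 0.18 for Prdm16 and 0.41 for Ucp1, the last from 11 against 8 counts. At 30 mg/kg it was -1.22 for Cidea, -4.77 for Dio2, 0.26 for Prdm16 and -8.88 for Ucp1. Cidea was lower and Prdm16 higher with doxorubicin at each of the 3 Rh2 doses. With library spread added, the Prdm16 interval held 0 at each dose, as did that of Cidea at 20 mg/kg (-1.14 to 0.24). The share of all genes with the same sign at all 3 doses was not taken, so nothing is read from these signs. Dio2 and Ucp1 went opposite ways at 20 and 30 mg/kg. Zic1 did so too, from 6 counts with and 0 without doxorubicin at 20 mg/kg and 0 with and 10 without at 30 mg/kg. Elovl3 and Otop1 had 0 counts with doxorubicin at 30 mg/kg against 453 and 397 without, and at 20 mg/kg Elovl3 had 0 against 3 and Otop1 3 against 5.

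Other genes enriched in brown fat numbered 24, of which 20 were tested. In Rh2-30 5 of the 20 were at least 2-fold above Control and 0 below, beside 8.45% and 1.63% of all genes, with a median log2 of 0.18 against 0.03 over all genes. Slc27a2, a fatty acid transporter, had 0, 0, 1105, 10, 0 and 14 counts in Control, Rh2-20, Rh2-30, Dox, Rh2-20 + Dox and Rh2-30 + Dox. Kng2, a kininogen gene, had 0, 3, 291, 0, 18 and 0 in the same order. Slc27a2 and Kng2 met the minimum mean of 10 counts through Rh2-30 alone, so the filter let them in because they were high there. The list was chosen with earlier results of these data known, so its share is a description. Outside Rh2-30, Slc27a2 had at most 1.38% and Kng2 at most 6.40% of its level there, and for Ucp1 the highest was 0.20%. The secreted factor gene Nrg4 was 5.41-fold above Control there, and the neurotrophin receptor gene Ntrk3 6.95-fold. Genes of the list that heart muscle also uses at a high level showed no such peak in deposited FPKM, which carry no TMM scaling. The respiratory chain subunit gene Cox8b had 259 FPKM in Rh2-30 against 239 to 367 FPKM elsewhere, Cox7a1 188 against 173 to 230, and the coactivator Ppargc1a 39.1 against 27.1 to 51.5. Lhx8 and Fgf21 had 0 counts in all libraries.

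Activators of the brown fat programme gave 2 of 15 genes at least 2-fold above Control in Rh2-30, near the 8.45% of all genes, with a median log2 of -0.06. They were Irf4, a transcription factor that drives thermogenic genes with Ppargc1a, at 110, 92, 1163, 158, 174 and 92 counts in the order used above, and the adipocyte factor Cebpa at 273, 522, 1681, 625, 499 and 325 counts. Irf4 was 9.29-fold and Cebpa 5.41-fold above Control in Rh2-30. The more highly expressed Med1, Hdac3 and Pparg lay within a narrow range, Pparg at 18.0 to 27.4 FPKM.

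Adrenergic and cAMP signalling gave 4 of 15 genes at least 2-fold above Control in Rh2-30, beside the same 8.45% of all genes, with a median log2 of 0.07. Adrb3, the beta adrenergic receptor typical of fat, had 0 counts in Control, 43 in Rh2-20, 525 in Rh2-30, 39 in Dox, 29 in Rh2-20 + Dox and 0 in Rh2-30 + Dox. Prkar2b, a regulatory subunit of protein kinase A, was 11.7-fold above Control in Rh2-30 but also 3.40-fold in Dox and 5.89-fold in Rh2-20 + Dox. Adcy3, an adenylyl cyclase, was 2.17-fold and Pde3b, a phosphodiesterase, 4.82-fold above Control in Rh2-30. Adrb1, the main beta adrenergic receptor gene of heart muscle, had 869 to 1088 counts over the 6 libraries.

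Thyroid hormone supply and response gave 2 of 8 genes at least 2-fold above Control in Rh2-30, again beside 8.45% of all genes, with a median log2 of -0.14. Thrsp, a lipogenic gene that responds to thyroid hormone, was 5.93-fold above Control there. The receptor gene Thra stayed at 14.9 to 17.2 FPKM in all 6 libraries. Among genes of heat production without Ucp1, 2 of 8 were above 2-fold (8.45% of all genes), with a median log2 of -0.12: Atp2a1, the fast muscle calcium pump, at 7.27-fold, and Sln, which uncouples that pump and is also an atrial gene, at 15768 counts against 14 in Control. The cardiac pump gene Atp2a2 had 651 to 757 FPKM. Of lipolysis and fuel uptake genes 0 of 14 were 2-fold higher or lower in Rh2-30, beside 8.45% and 1.63% of all genes. Their median log2 was 0.13.

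Paralogs of the members differed among families. Cidec, a lipid droplet gene of fat cells, had 40, 180, 1550, 297, 199 and 3 counts in the order used above and was 34.0-fold above Control in Rh2-30, whereas Cideb was 1.68-fold above it. Elovl6 was 14.1-fold, Elovl4 3.64-fold and Elovl7 2.54-fold above Control in Rh2-30. Thus 3 of the 5 tested ELOVL paralogs passed 2-fold, beside 8.45% of all genes, and Elovl1 and Elovl5 did not. Of the uncoupling protein paralogs 0 of 5 did, near that share. The Prdm16 paralog Mecom had 5027 to 6454 counts. Otop2, Otop3, Zic2, Zic4 and Zic5 had 0 counts in every library.

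Ucp3, an uncoupling protein of muscle mitochondria, was the paralog with the lowest p in the test by doxorubicin. Its counts were 3861 in Control, 3191 in Rh2-20 and 4203 in Rh2-30, and 966 in Dox, 945 in Rh2-20 + Dox and 1693 in Rh2-30 + Dox. All 3 libraries with doxorubicin lay below all 3 without, as 9.17% of all genes tested did. With the 3 Rh2 doses taken as replicates of each other, the log2 difference was -1.61 and the adjusted p was 0.149 in the quasi-likelihood test of edgeR, so it did not pass 0.05. The adjusted p was 8.52e-08 in the Wald test of DESeq2 and 0.0372 in the edgeR test without the Rh2-30 + Dox library. Ucp2, the uncoupling protein gene of many tissues, had 113.6 FPKM in Dox and 93.6 in Rh2-30, with 43.1 to 72.7 in the other 4.

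**Figure D2:**
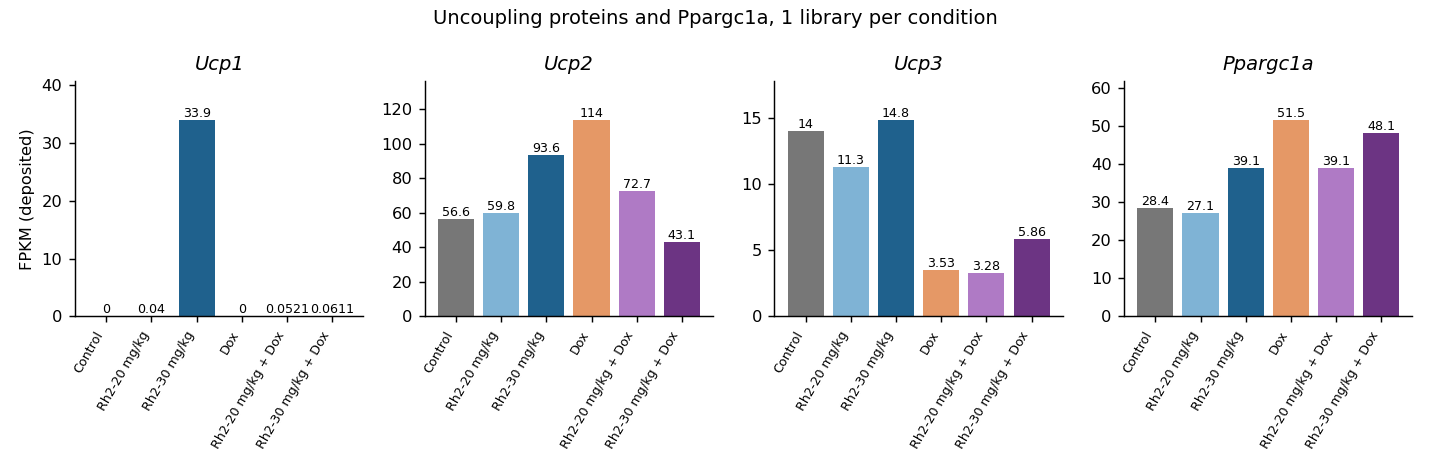
Deposited FPKM (linear axes from 0) of Ucp1, Ucp2, Ucp3 and Ppargc1a, 1 bar per library with its value above it. Ucp1 reaches 33.9 in Rh2-30, while Ucp3 lies at 11.3 to 14.8 in the libraries without doxorubicin and at 5.86 or less in those with it.

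Over the 106 pathway and paralog genes, of which 93 were tested, 0 passed an adjusted p of 0.05 in the edgeR quasi-likelihood test of 3 libraries with doxorubicin against 3 without, in either direction, and 11 had an unadjusted p under 0.05. Over all genes that test called 0.0164% higher and 0.0109% lower, and 10.1% had an unadjusted p under 0.05. DESeq2 called 1 of the 93 higher, Ppargc1a, and 3 lower, Ucp3, Hr and Gatm, where 0.886% and 1.69% of all genes were called. Hr, a thyroid hormone responsive corepressor gene, had a log2 of -0.63 with an adjusted p of 0.244 in edgeR and 0.00432 in DESeq2. Gatm, an enzyme gene of creatine synthesis, had -0.90 with 0.333 and 0.0274, and Ppargc1a 0.61 with 0.333 and 0.0153. All 3 libraries with doxorubicin lay above all 3 without in Ppargc1a, as in 7.86% of all genes tested. In the test of 4 libraries with Rh2 against 2 without, edgeR and DESeq2 each called 0 of these genes, with 8 and 10 at an unadjusted p under 0.05, where edgeR called 0.0% (7.19% at an unadjusted p under 0.05) and DESeq2 0.302% higher and 0.396% lower over all genes. These tests mix Rh2 doses or doxorubicin within a side and measure the spread between these pooled libraries only.

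Markers of other tissues were also higher in Rh2-30, where 8.45% of all genes tested were at least 2-fold above Control. Of markers of all fat cells 6 of 12 were, of white fat 5 of 5 tested and of the atrium 6 of 6. Adipoq, the gene of adiponectin, had 56, 330, 3716, 650, 317 and 8 counts in the order used above, and the fat protease gene Cfd had 287, 989, 13390, 2097, 1281 and 20. Myl7, the atrial myosin light chain, had 56, 1187, 52896, 9134, 10613 and 19 counts. These 3 genes were also above Control in Rh2-20, Dox and Rh2-20 + Dox, where Ucp1 had 8, 0 and 11 counts. In Dox and in Rh2-20 + Dox, 6 of 12 general fat, 3 of 5 white fat and 6 of 6 atrial markers were at least 2-fold above Control. The share of all genes was 5.43% in Dox and 5.1% in Rh2-20 + Dox. In Rh2-20 the same lists gave 4 of 12, 4 of 5 and 4 of 6, beside 3.32% of all genes. Relative to Rh2-30, the Dox library had 19.7% of the Adipoq, 17.7% of the Cfd, 19.5% of the Myl7 and 16.1% of the Myl4 level, while 0 Ucp1 counts allow up to 0.0525%. In Rh2-30 + Dox, these single genes, picked after their values were seen, were at 0.23% for Adipoq, 0.16% for Cfd, 0.04% for Myl7 and 0.35% for Myl4 of the Rh2-30 level, beside 0.20% for Ucp1, while the atrial gene Nppa was at 12.4%.

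Summed over each list and in CPM (counts scaled to library size), markers of the atrium were at 50.3 in Control, 65.8 in Rh2-20, 1725 in Rh2-30, 404 in Dox, 507 in Rh2-20 + Dox and 78.4 in Rh2-30 + Dox. Those of white fat were 127 in Rh2-30, 37.3 in Rh2-30 + Dox and 26.5 to 64.5 over the 5 libraries other than Rh2-30, and those of all fat cells, which include genes that heart also uses at a high level such as Lpl and Fabp4, were 2896 in Control, 3420 in Rh2-30, 2714 in Dox, 2722 in Rh2-20 + Dox and 3214 in Rh2-30 + Dox. The summed fat list was thus below Control in Dox and Rh2-20 + Dox, unlike Adipoq and Cfd. Of white fat markers, Hoxc8, Hoxc9 and Hoxc10 had 0 counts in all libraries, and leptin (Lep) had 4 counts in Dox and 0 elsewhere. Markers of cardiac muscle were lowest in Rh2-30, at 21088 against 25079 to 29990, with a median log2 of -0.60 from Control. Other lists were set beside the 8.45% of all genes at least 2-fold above Control in Rh2-30 and the 1.63% at least 2-fold below. Higher were 5 of 7 markers of lymphoid tissue (1 lower), 4 of 6 of nerve and Schwann cells and 3 of 6 of mesothelium. Beige fat had 2 of 5 higher and lung epithelium 2 of 2 tested. Fast skeletal muscle had 1 of 7 higher and 1 lower, and vascular smooth muscle had 0 of 6 higher. Both counts of higher genes were near the share of all genes. The part of these other tissues in the brown fat values was not tested.

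**Figure D3:**
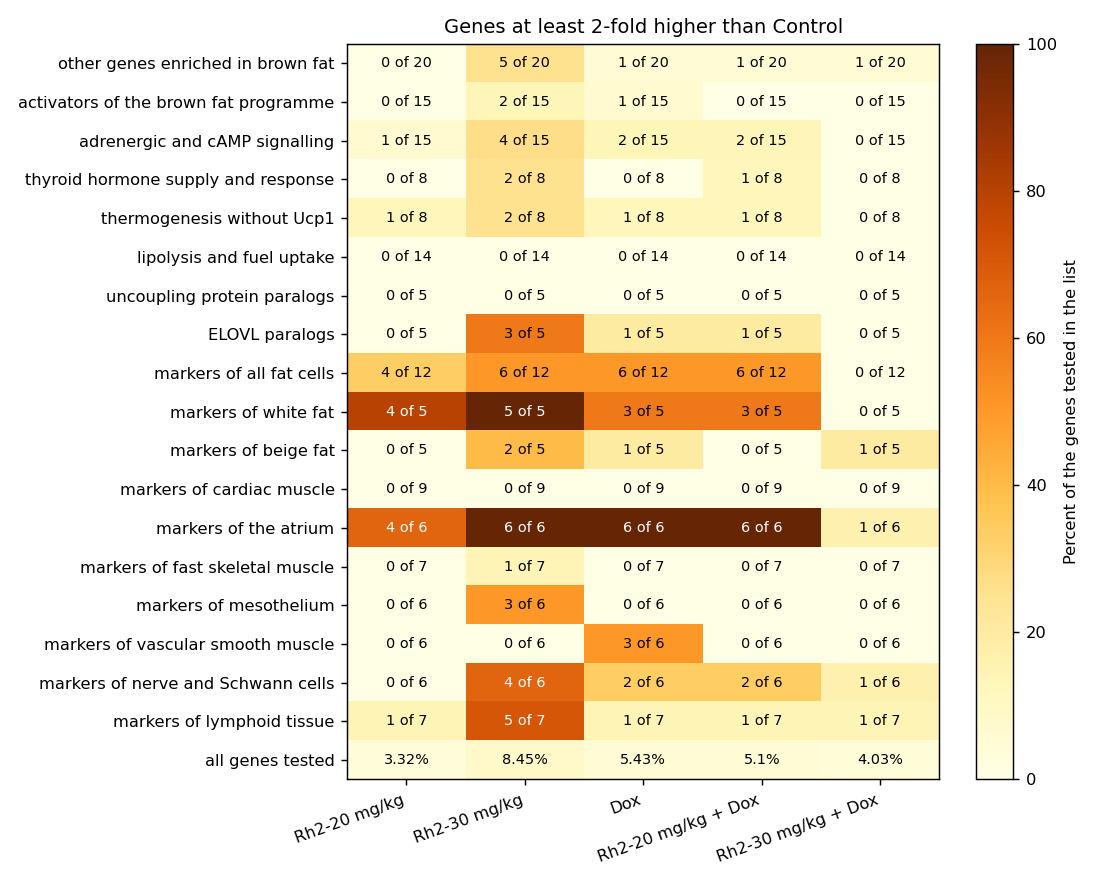
Number of genes at least 2-fold above Control among those tested in each pathway, paralog or marker list (rows) for the 5 treated libraries (columns), with colour for their percent and the share over all 18328 genes in the last row. Atrial markers pass in 6 of 6 cases in Rh2-30, Dox and Rh2-20 + Dox, while other genes enriched in brown fat reach 5 of 20 in Rh2-30.

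**Figure D4:**
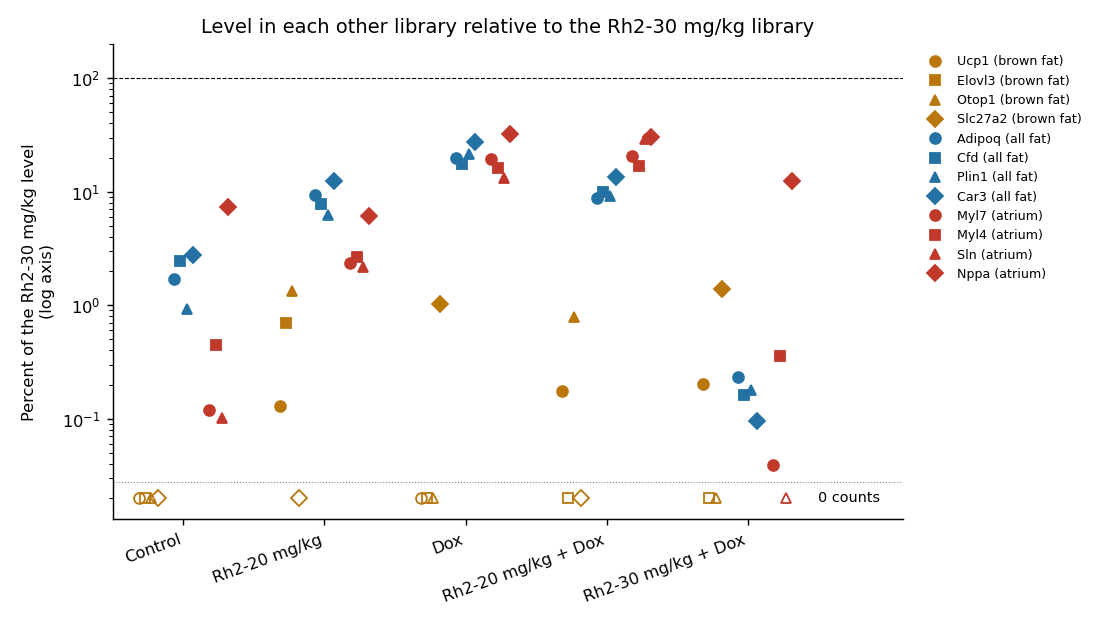
Level of 12 brown fat, general fat and atrial genes in each of the other libraries as a percent of the Rh2-30 level (log axis, dashed line at 100), with open symbols in the lower band for 0 counts. The 12 genes were picked from longer lists after their values were seen. In Dox and Rh2-20 + Dox the fat and atrial genes shown lie at 8.83% or above, and Ucp1 lies at or below 0.18%. The summed list of general fat markers was below Control in both of those libraries.

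Likeness to Ucp1 was measured as the largest absolute difference in any of the 6 libraries between log2 levels centred on each gene's own mean. Elovl3 lay at 2.37 log2 units, Otop1 at 2.83, Zic1 (with 10 counts or fewer) at 6.12, Dio2 at 6.96, Cidea at 7.79 and Prdm16 at 9.42, which describes genes chosen on these same levels. Outside the members the nearest of 15244 genes that averaged 50 counts or more was Mfsd2a, a lipid transporter gene, at 2.52, with 641 counts in Rh2-30, 6 in Rh2-20 + Dox and 0 in the other 4. Slc5a7, the choline transporter gene of cholinergic neurons, followed at 2.92 with 317 counts in Rh2-30 and 0 elsewhere, and then Kng2 at 3.05. The other 9 of the nearest 12 lay between 4.43 and 5.19: Mup9, Fbxw25, Mup8, Cadps, Adamts8, Fbxw18, Mup11, Gm38574 and Hamp. Mfsd2a, Slc5a7, Kng2 and others of the 12 met the minimum mean of 50 counts through Rh2-30 alone. The filter let them in because they were high there, so the ranking is a description. The Mup genes (major urinary proteins) and Fbxw genes belong to families of near-identical copies, so their counts are uncertain. With a root mean square in place of the largest difference 5 of the 12 were named again, and with a minimum mean of 10 counts 3 were.

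**Figure D5:**
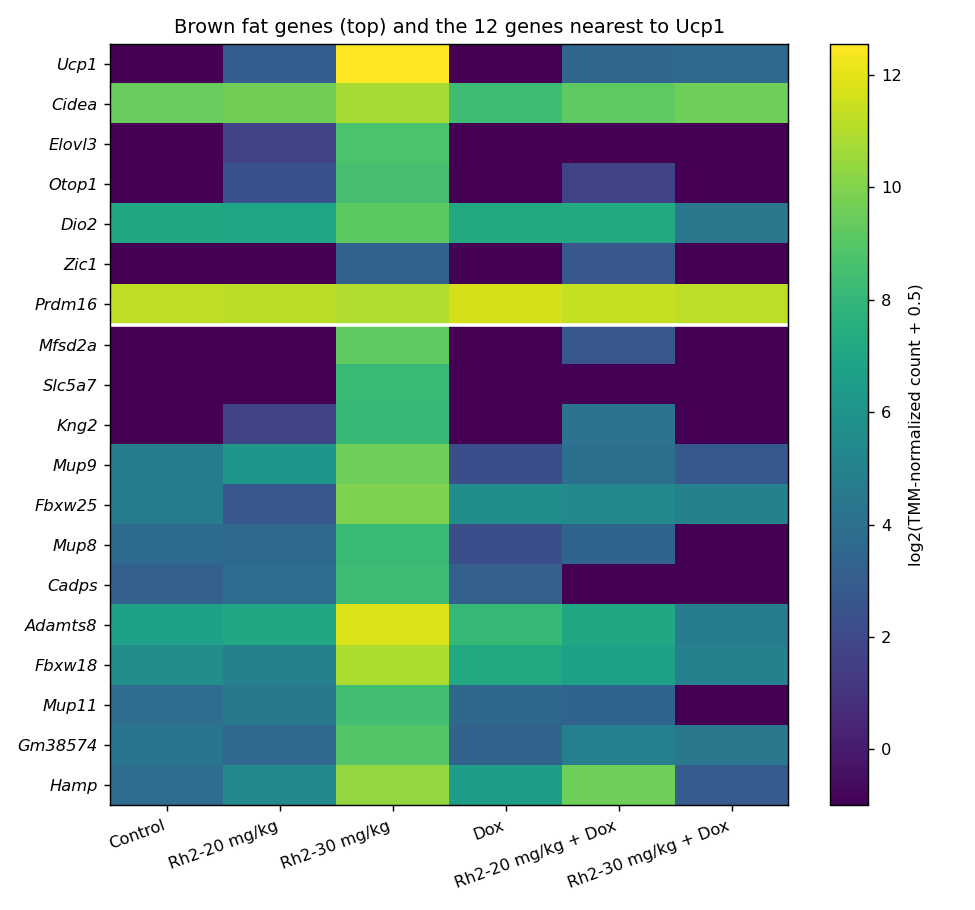
Colour map of log2(TMM-normalized count + 0.5) in the 6 libraries for the 7 brown fat genes (above the white line) and the 12 genes nearest to Ucp1 (below it). All 12 are highest in Rh2-30, which follows largely from choosing them by likeness to Ucp1. Hamp comes close to its Rh2-30 level in Rh2-20 + Dox, with 783 against 1388 counts.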

How the data were processed

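RNA from hearts pooled from 5 mice was sequenced by the authors as 1 library per condition with 101 base reads. Libraries were built with a SureSelect XT RNA Direct kit. Whether that kit recovers all genes alike was not tested. This limits comparison of levels between genes and the reading of genes with 0 counts in every library. Per the submitters' processing notes, bcl2fastq 2.20.0, Trimmomatic, HISAT2 2.1.0 and StringTie 2.1.3b were used, with build mm10. The deposited gene table holds raw read counts, FPKM and TPM values per library. TPM was not used. Deposited FPKM values served to compare genes with each other, to give the range of some genes over the libraries, and as an alternative scale. They carry no TMM scaling. Whether strand was used in counting is not given in the sources used here. Library totals were 86164411 to 90621002 counts, and 0 value columns lacked a sample.

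Counts were scaled by TMM in edgeR 4.0.16 (R 4.3.3). Members were compared pair by pair with a prior count of 0.5, exact conditional 95% binomial intervals, a floor of 3 counts per library and a call at 2-fold that needs over 3 counts in 1 library. Wider intervals added a common dispersion of 0.0285. Lists were tested with the edgeR quasi-likelihood test, two-sided and Benjamini-Hochberg adjusted over genes averaging 10 counts or more, and DESeq2 1.42.0 was an alternative. The script was tested on simulated data. Members and lists were chosen with earlier results of these data known. The text names all members and the 12 genes nearest to Ucp1. A rule set out to name tested paralogs and, from each list, the 3 genes of highest mean FPKM and the 2 of widest range. Only part of the genes under that rule are named, and other genes were named after their values were seen. The named list genes are thus not an even sample of their lists. Of 7 members, 5 had a promoter entry. Some list genes are not reported here. Alternatives were other size factors, prior counts, FPKM pseudocounts, filters, folds, dispersions and leaving out each library.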

Additional observations from a re-analysis of the deposited data

Results flagged for a closer look

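The doxorubicin difference of Ucp1 went opposite ways at the 2 Rh2 doses. Rh2-30 + Dox minus Rh2-30 was a log2 of -8.88, from 12 against 6442 counts, while Rh2-20 + Dox minus Rh2-20 was 0.41, from 11 against 8 counts. For Dio2 the same differences were -4.77, from 20 against 610 counts, and 0.33, from 163 against 127 counts. With 1 library on each side neither difference between doses was tested. Counts at the 20 mg/kg dose were so low for Ucp1 that its direction there lies within counting error, and the Dio2 interval at that dose, -0.01 to 0.68, also held 0.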

How the results depend on the processing

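The labels carry no replicate numbers, and the only pairing was that by Rh2 dose given below. Of 15 log2 differences of members with counts in Control, all 15 stayed within their counting interval with DESeq2 size factors and with a prior count of 2, 12 with log2(FPKM + 0.1) and 10 with log2(FPKM + 1). The 9 against 0 counts in Control have no such interval, and all 9 moved by over 1.5-fold with another prior count or on an FPKM scale (Ucp1 in Rh2-20 to a log2 of 2.30 with a prior count of 2). On both FPKM scales the members called higher numbered 0 in Rh2-20, Rh2-20 + Dox and Rh2-30 + Dox, and those called lower in Dox 0. With FPKM + 1 the member lower in Rh2-30 + Dox was also lost (0), and a 4-fold call left 0 lower in Dox. With counts raised to at least 3, 1 member was higher in Rh2-20, and with no filter 2 were in Rh2-20 + Dox. For doxorubicin over all genes, edgeR called 3 higher and 2 lower, DESeq2 146 and 279, and a fit with Rh2 dose as a term, which pairs the libraries of each dose, 0 and 0. Leaving out 1 library gave 0 to 9 higher, 9 without Rh2-30 + Dox, and 0 to 5 lower. Of pathway genes edgeR called 0, DESeq2 4, and leaving out 1 library 0 to 1, the 1 being Ucp3 without Rh2-30 + Dox. For Rh2, DESeq2 called 55 higher and 72 lower, and leaving out 1 library gave 0 to 1 higher and 0 to 19 lower, 19 without Control, which left Dox alone without Rh2. The adjusted p of Ucp3 ran from 0.0372 to 0.476 over the edgeR alternatives. No member difference from Control of at least 2-fold reversed direction with other size factors, another prior count or an FPKM scale. Reversal was not checked in that way for the other results. The cause of these moves was not tested. Members with fewer than about 10 counts are at the limit of this depth.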
